A study of Mus musculus with 14 samples.

Results

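The nuclear genes of the mitochondrial respiratory chain and ATP synthase were followed in the blood of mouse embryos that carry the leukaemia fusion Cbfb-MYH11 or lack Cbfb. They were picked by gene symbol alone: symbols starting with Nduf, Uqcr, Cox4, Cox5, Cox6, Cox7, Cox8 or Atp5, together with Sdha, Sdhb, Sdhc, Sdhd and Cyc1. Of 18194 genes with a probe set of their own on the array, 91 met this rule, and 81 of them reached a log2 value of 6 on at least 3 of the 14 arrays and were tested. The 10 others lay below that level (Ndufb1, Ndufb4, Ndufaf5, Ndufaf6, Ndufaf7, Cox4i2, Cox7a1, Cox7b2, Cox7c and Cox8b). Each gene is read by its brightest probe set.

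Peripheral blood was taken at E12.5, and RNA was made from pools of 8 to 10 embryos of one genotype. Chimeric mice with the Cbfb-MYH11 allele were mated to C57/Bl6 females, which gave heterozygous Cbfb+/MYH11 embryos (4 arrays) and wild-type littermates (WT, 4 arrays). Intercrosses of Cbfb+/- mice gave Cbfb-/- embryos (3 arrays) and Cbfb+/+ littermates (3 arrays). The labels name no treatment and no Cre for any group. Cbfb is the partner of the Runx transcription factors, and the fusion joins it to a smooth muscle myosin. Sample titles name the arrays as technical replicates, so each p-value here measures array-to-array spread that may be purely technical, and precision is limited by how few arrays there are.

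The respiratory chain hands electrons from NADH (complex I) and succinate (complex II) through complex III to oxygen at complex IV, and ATP synthase (complex V) uses the resulting proton gradient to make ATP. Most subunits are encoded in the nucleus, with a few in mitochondrial DNA that the symbol rule does not cover. Circulating blood at this age is mostly primitive red cells, which still carry mitochondria and lose them as they mature. Genes of the chain are known for promoters with sites for NRF1 and for ETS factors such as GABP.

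Of the 91 genes, 74 had a RefSeq promoter window (GRCm38.p6), running from 250 bases before to 50 after the start, in 79 windows. The NRF1 motif (GCGCA and GCGC with any 1 base between them) was found in 22.8% of these windows, against 4.60% of all 32851 promoter windows of that length. The ETS motif (CCGGAAG) was found in 24.1% against 8.86%, and the YY1 motif (AANATGGCG) in 12.7% against 2.38%. The RUNX motif (TGTGGT) was found in 11.4% against 16.8%. Both strands were searched, and no matches of different motifs overlapped in these 79 windows. The median GC content was 59.0% in these windows and 52.7% in all, and its part in the shares was not tested. Among genes with a window, the NRF1 motif was present in 7 of the 29 that rose in Cbfb+/MYH11 and in 8 of the 37 that were tested and did not. The RUNX motif was present in 6 of those 29 and 2 of those 37, and the ETS motif in 5 and 14. Ndufaf1 is 1 of the 6 and 1 of the 5. It passed the expression filter through the Cbfb+/MYH11 arrays alone, so its rise was fixed and is no support. Whether these shares differ between risen and other genes was not tested. The 250 bases before the start are shown for genes on which the results below turn, with motif matches in capitals. The first pair are complex IV isoforms whose changes differ in sign in Cbfb-/-, and the others rose in Cbfb+/MYH11.
Cox6b2 (chr7:4753095-4753344, minus strand): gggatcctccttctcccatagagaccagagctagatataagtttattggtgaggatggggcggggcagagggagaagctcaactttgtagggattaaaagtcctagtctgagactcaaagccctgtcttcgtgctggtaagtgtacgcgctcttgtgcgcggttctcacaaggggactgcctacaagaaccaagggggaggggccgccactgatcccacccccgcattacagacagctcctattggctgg
Cox6b1 (chr7:30626115-30626364, minus strand, ETS in capitals): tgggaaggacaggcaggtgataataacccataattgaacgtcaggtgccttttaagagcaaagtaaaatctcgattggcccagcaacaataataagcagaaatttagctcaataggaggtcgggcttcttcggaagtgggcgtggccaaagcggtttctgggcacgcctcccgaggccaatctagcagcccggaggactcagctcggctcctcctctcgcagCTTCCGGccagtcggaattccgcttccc
Ndufs3 (chr2:90904722-90904971, minus strand, ETS in capitals): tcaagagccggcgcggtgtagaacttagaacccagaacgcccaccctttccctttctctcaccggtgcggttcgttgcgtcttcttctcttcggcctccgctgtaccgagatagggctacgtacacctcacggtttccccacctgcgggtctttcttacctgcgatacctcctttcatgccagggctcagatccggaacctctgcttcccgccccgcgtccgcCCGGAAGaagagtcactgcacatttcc
Sdhd (chr9:50603850-50604099, minus strand, NRF1 then ETS in capitals): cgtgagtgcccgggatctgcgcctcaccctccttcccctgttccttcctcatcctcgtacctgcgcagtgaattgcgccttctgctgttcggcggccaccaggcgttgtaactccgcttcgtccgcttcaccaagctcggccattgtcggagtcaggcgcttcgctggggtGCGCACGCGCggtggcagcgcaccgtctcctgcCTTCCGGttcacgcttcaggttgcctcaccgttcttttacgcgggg
Atp5g2 (chr15:102671048-102671297, minus strand, NRF1 in capitals): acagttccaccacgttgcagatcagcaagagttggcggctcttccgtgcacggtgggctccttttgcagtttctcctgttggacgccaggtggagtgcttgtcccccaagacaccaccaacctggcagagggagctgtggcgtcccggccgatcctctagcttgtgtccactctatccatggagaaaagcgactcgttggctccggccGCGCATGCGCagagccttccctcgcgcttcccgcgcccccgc
Ndufaf4 (chr4:24897833-24898082, plus strand, NRF1 in capitals): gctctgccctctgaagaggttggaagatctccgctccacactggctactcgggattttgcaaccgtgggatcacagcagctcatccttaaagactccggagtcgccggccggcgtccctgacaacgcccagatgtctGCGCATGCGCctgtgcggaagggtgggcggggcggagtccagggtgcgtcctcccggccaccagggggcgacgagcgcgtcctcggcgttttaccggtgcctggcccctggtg
Ndufab1 (chr7:122101849-122102098, minus strand, RUNX in capitals): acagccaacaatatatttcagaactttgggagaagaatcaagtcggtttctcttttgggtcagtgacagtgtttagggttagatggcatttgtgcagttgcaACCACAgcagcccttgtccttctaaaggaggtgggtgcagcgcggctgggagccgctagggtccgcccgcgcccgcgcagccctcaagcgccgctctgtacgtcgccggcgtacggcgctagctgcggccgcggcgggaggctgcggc
Cox6b2, which had the largest rise among the 81 genes in Cbfb+/MYH11, has none of the motifs in its window. A match is no proof of binding, and its absence says only that these letters are not there.

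Array medians lay between 4.27 and 4.46. In the Cbfb+/MYH11 cross, arrays 1 and 2 resembled each other, as did arrays 3 and 4. Over the 81 genes the log2 differences had an SD of 0.073 to 0.198 inside such a pair. Between arrays of different pairs it was 0.194 to 0.428, and in the Cbfb-/- cross 0.079 to 0.106. Erythroid markers were high on every array, with a median over 10 genes of 12.03 to 12.38 in Cbfb+/MYH11 and 11.81 to 12.01 in WT, and of 11.95 to 11.99 in Cbfb-/- and 12.16 to 12.21 in Cbfb+/+. Of the 9 tested, 2 rose in Cbfb+/MYH11 (22.2%, against 30.5% of all genes), Klf1 (0.86) and Gata1 (0.77). In Cbfb-/- 1 fell (11.1%, against 6.65% of all genes), Ank1 (-0.84). On each Cbfb+/MYH11 array 3 of the 9 lay above WT and 4 below (39.5% and 13.6% of all genes). The erythroid median thus covers genes that went opposite ways. Other lists moved with genotype too. Of 10 tested macrophage markers 7 fell in Cbfb+/MYH11 and 10 in Cbfb-/-, and of 9 megakaryocyte and platelet markers 6 and 9 fell. Over all genes 5.63% and 6.65% were called lower. C1qa, C1qb and C1qc, for example, passed the filter only with the Cbfb+/+ arrays counted. This favoured their fall in Cbfb-/-, so those calls are no support. The median levels of the 2 lists were 4.49 to 4.72 in Cbfb+/MYH11 and 5.69 to 7.70 in WT (13 macrophage genes), and 5.72 to 5.92 and 6.41 to 8.45 (10 platelet genes). The median of 10 mast cell and basophil markers was 5.60 to 5.99 in Cbfb+/MYH11 and 4.54 to 4.93 in WT. Neural markers reached 7.13 to 7.73 in Cbfb-/-, against 3.76 to 4.26 in Cbfb+/+, over 13 genes. In Cbfb+/MYH11 they were at 4.60 and 4.49 on arrays 1 and 2 and at 6.44 and 6.63 on arrays 3 and 4, against 3.77 to 4.55 in WT. Of 8 tested liver and visceral endoderm markers 5 fell in Cbfb+/MYH11 and 5 rose in Cbfb-/-. Over all genes 5.63% were called lower in Cbfb+/MYH11 and 19.5% higher in Cbfb-/-. Cubn and Rbp4 passed the filter only with the Cbfb-/- arrays counted, so their rise there is no support. The median of 10 liver and visceral endoderm genes was 5.11 to 5.48 in Cbfb+/MYH11, against 6.62, 6.88, 5.21 and 5.41 in WT, and 6.92 to 7.31 in Cbfb-/-, against 5.66 to 5.85 in Cbfb+/+. The median of 13 heart and skeletal muscle markers was 4.58 to 5.03 in Cbfb+/MYH11, against 5.01, 4.95, 6.19 and 6.16 in WT, and 5.03 to 5.53 in Cbfb-/-, against 4.76 to 5.14 in Cbfb+/+. WT arrays 1 and 2 thus stand apart for liver markers and WT arrays 3 and 4 for muscle markers. In pooled blood, a change in the cells present and a change in RNA per cell cannot be told apart, and the part of any of these lists in the results below was not tested.

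Cbfb+/MYH11 blood carried more transcript of many respiratory chain genes than WT blood. Of the 81 genes, 33 rose (limma, adjusted p under 0.05 and at least 1.5-fold) and 0 fell. Among the 33 is Ndufaf1, which passed the filter through the Cbfb+/MYH11 arrays alone, so that its direction was fixed. The share of 40.7% compares with 30.5% of all 7393 tested genes called higher, 5.63% called lower and 36.1% called in either direction, so rises were common across the array. The median change was 0.50 on the log2 scale, against 0.26 over all tested genes, and 58 of the 81 genes lay above that general median. Without the fold threshold 59 genes were higher and 6 lower (45.3% and 17.2% of all genes). In 59 genes each Cbfb+/MYH11 array lay above each WT array, and in 5 each lay below (39.5% and 13.6% of all genes). The count depended on scaling: after quantile normalization of the arrays 18 rose and 2 fell, while the median of all genes moved to -0.04 and that of the 81 genes to 0.19. Relative to the general median the genes were 0.24 higher as deposited and 0.23 higher after quantile normalization. This gap depended on the filter for dim genes, at 0.11 with the filter at 7 and 0.60 with none.

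**Figure D1:**
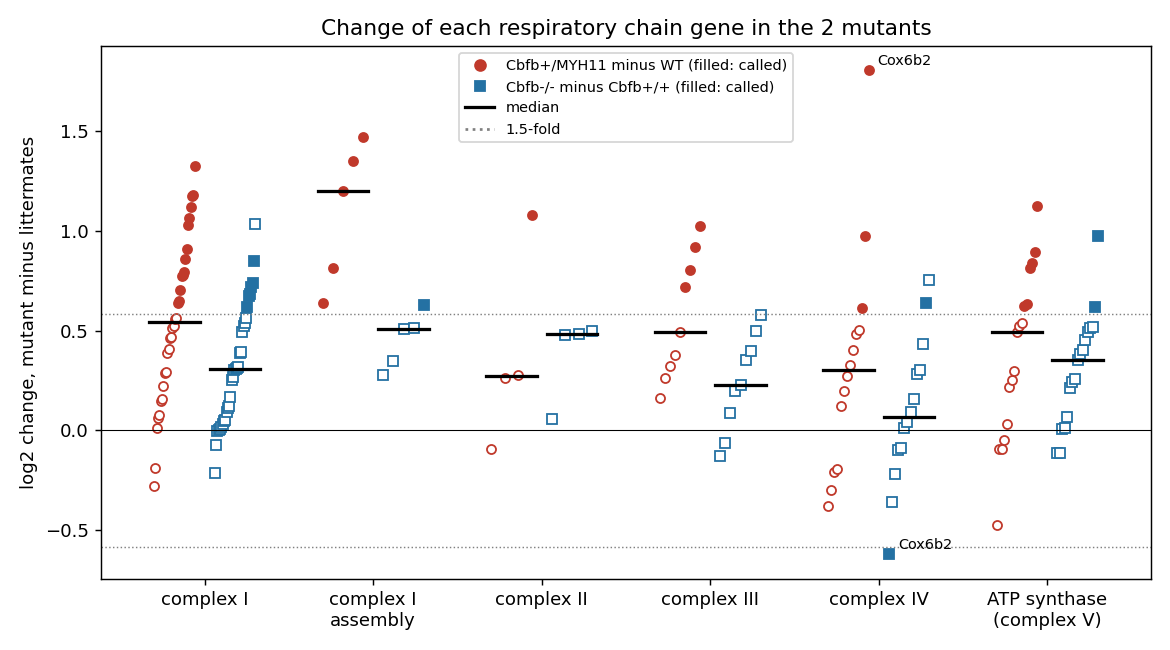
Log2 change of each of the 81 tested genes, by complex, in Cbfb+/MYH11 against WT (red circles) and in Cbfb-/- against Cbfb+/+ (blue squares). Filled symbols were called, black bars are medians and dotted lines mark a 1.5-fold change. All 5 tested assembly factors rose in Cbfb+/MYH11, though for Ndufaf1 the filter fixed the direction, and Cox6b2 is called in opposite directions.

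The rise was present within both array pairs. The change was above 0 in 68 genes within arrays 1 and 2 and in 71 within arrays 3 and 4, with medians of 0.50 and 0.42. In 23 genes (28.4%) it reached 1.5-fold within both pairs, against 20.8% of all genes, and 0 genes were that much lower in both (3.58% of all). It was larger in arrays 1 and 2 for 54 of the 81 genes. The WT arrays differed most: the mean of WT arrays 1 and 2 lay below that of WT arrays 3 and 4 in 69 genes. The median level of the 81 genes was 9.78, 9.88, 10.04 and 10.04 on the Cbfb+/MYH11 arrays and 9.02, 9.23, 9.43 and 9.37 on the WT arrays. Over all 7393 tested genes it was 6.99, 7.03, 7.13 and 7.15, and 6.59, 6.66, 6.87 and 6.84. WT arrays 1 and 2 were thus lowest for all tested genes as well.

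**Figure D2:**
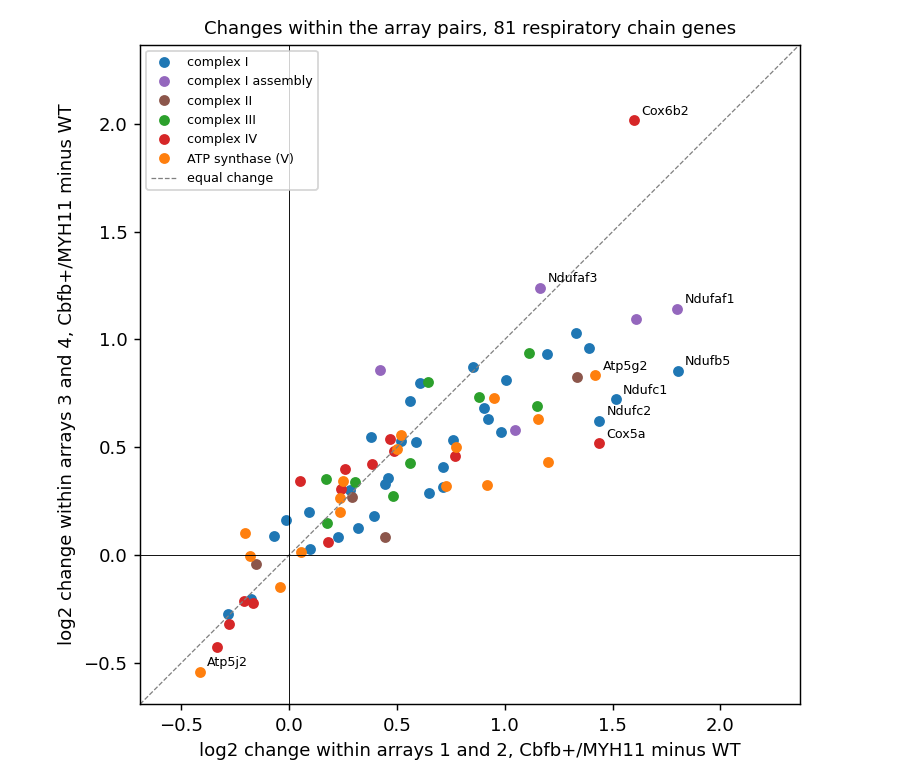
Log2 change of each of the 81 genes in Cbfb+/MYH11 against WT within arrays 1 and 2 (horizontal) and within arrays 3 and 4 (vertical), coloured by complex, with the dashed line marking equal changes. Most points lie in the upper right and below the dashed line, while Cox6b2 is higher in arrays 3 and 4 (2.02, against 1.60).

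Complex I takes electrons from NADH. Of its 32 tested subunits 14 rose in Cbfb+/MYH11 (43.8%, against 30.5% of all genes) and 0 fell, with a median change of 0.54. Of the 6 core subunits, which carry the NADH site and iron-sulphur clusters, 3 rose (50%). All 6 were higher on each Cbfb+/MYH11 array than on any WT array, as were 39.5% of all genes. Ndufs3, a core subunit of the arm that reaches into the matrix, had values of 9.20, 9.32, 9.38 and 9.45 in Cbfb+/MYH11, against 7.86, 8.00, 8.31 and 8.46 in WT. The groups lie well apart, and the change was 1.18 (95% interval 0.925 to 1.435, limma adjusted p = 5.10e-06). Ndufv2, an iron-sulphur subunit next to the NADH site, had 10.31, 10.26, 10.69 and 10.69 in Cbfb+/MYH11, against 9.08, 9.48, 9.89 and 9.87 in WT (change 0.91, adjusted p = 4.58e-04). Ndufs7, which holds the last cluster before ubiquinone, rose by 0.79. Ndufv1, the subunit that binds NADH, and Ndufs1, the largest core subunit of the matrix arm, were at 0.47 and 0.39 and did not reach 1.5-fold. Dimmer probe sets of Ndufv1 were at 0.76 and 1.20 and called (limma over probe sets). Of the dimmer ones of Ndufs8 (0.29), those at 0.87 and 0.64 were called and those at 0.45, 0.37 and -0.14 were not. The count of 3 risen core subunits thus rests on the brightest probe sets.

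Of the 26 tested accessory subunits of complex I, 11 rose (42.3%, against 30.5% of all genes). Ndufb5 had the largest change (1.33, adjusted p = 0.00786), with 7.73, 7.78, 8.46 and 8.46 in Cbfb+/MYH11, against 5.62, 6.28, 7.60 and 7.61 in WT. Here the pairs matter, since WT arrays 3 and 4 nearly reach Cbfb+/MYH11 arrays 1 and 2. Ndufa9, a subunit near the ubiquinone site, had 8.92, 9.03, 9.13 and 9.20 in Cbfb+/MYH11, against 7.43, 7.75, 8.21 and 8.19 in WT (1.18, adjusted p = 3.47e-05). Ndufab1, the mitochondrial acyl carrier protein, which also serves fatty acid synthesis, had 9.32, 9.34, 9.57 and 9.58 in Cbfb+/MYH11, against 8.08, 8.19, 8.69 and 8.59 in WT (1.07, adjusted p = 2.89e-05). In both genes the groups do not overlap. Ndufc1 (1.12) and Ndufc2 (1.03), neighbours in the membrane arm, rose too. The other 6 risen genes, Ndufa2, Ndufa6, Ndufa8, Ndufa10, Ndufb3 and Ndufb10, changed by 0.64 to 0.86. Ndufa1 (-0.19, adjusted p = 0.0184) and Ndufa3 (-0.28, adjusted p = 0.00536) were below 0.

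Assembly factors build complex I but are absent from the finished enzyme. All 5 that were tested were called higher in Cbfb+/MYH11, by 0.64 to 1.47, against 30.5% of all genes. Ndufaf5, Ndufaf6 and Ndufaf7 lay below the filter. Ndufaf1 had 6.40, 6.37, 6.48 and 6.48 in Cbfb+/MYH11, against 4.38, 4.79, 5.41 and 5.27 in WT (1.47). It was the only member that passed the filter through the Cbfb+/MYH11 arrays alone, so it had to be higher there and its call is no support, and its WT values are near background. Ndufaf3 and Ndufaf4, which act together early in assembly, had changes of 1.20 (adjusted p = 1.56e-06) and 1.35 (adjusted p = 2.97e-05). Ndufaf3 stood at 6.65, 6.56, 6.85 and 6.91 in Cbfb+/MYH11, against 5.61, 5.27, 5.63 and 5.64 in WT. Ndufaf4 stood at 7.28, 7.45, 7.62 and 7.46 in Cbfb+/MYH11, against 5.76, 5.75, 6.45 and 6.44 in WT. In neither gene did the groups overlap. Ndufaf8 rose by 0.81 and Ndufaf2 by 0.64.

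**Figure D3:**
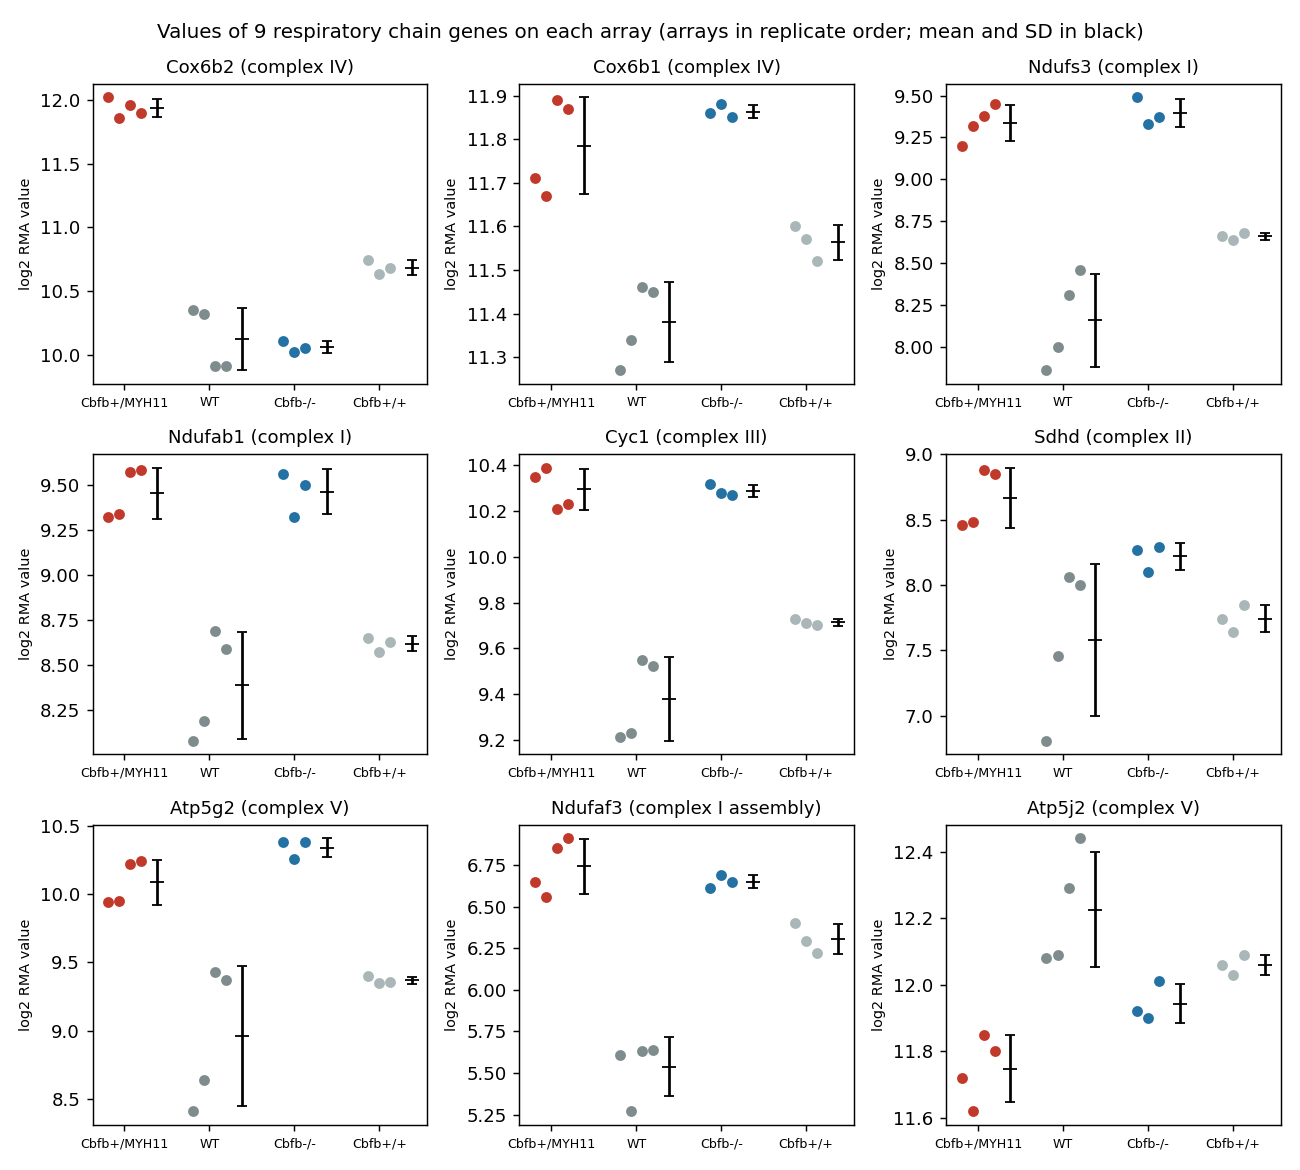
Log2 RMA value of 9 genes on each array (points, in replicate order), with the mean and SD of each group in black; each panel has its own vertical scale. Cox6b2 stands apart on the Cbfb+/MYH11 arrays, and for Sdhd and Atp5g2 the WT arrays split into a lower and a higher pair.

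Complex II is also an enzyme of the citric acid cycle. Of its 4 genes 1 (25%, against 30.5% of all genes) was called higher in Cbfb+/MYH11 by the brightest probe sets. This was Sdhd, a membrane anchor. It had 8.46, 8.48, 8.88 and 8.85 in Cbfb+/MYH11, against 6.81, 7.46, 8.06 and 8.00 in WT (1.08, adjusted p = 0.00126). The flavoprotein gene Sdha was at 0.28 (adjusted p = 0.00304), the iron-sulphur gene Sdhb at 0.26 (adjusted p = 0.0695) and the other anchor, Sdhc, at -0.10 (adjusted p = 0.413). A second, dimmer probe set of Sdhc was at 0.82 and called (limma over probe sets, adjusted p = 0.00815), so the direction for this gene depends on the probe set.

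Complex III passes electrons to cytochrome c. Of its 9 genes 4 rose in Cbfb+/MYH11 (44.4%, against 30.5% of all genes). In all 9 each Cbfb+/MYH11 array was above each WT array (39.5% of all genes), with changes of 0.16 to 1.03. The redox subunits were among the risen genes. The Rieske iron-sulphur protein gene Uqcrfs1 had 9.50, 9.48, 9.88 and 9.94 in Cbfb+/MYH11, against 8.31, 8.44, 9.01 and 8.94 in WT (1.03, adjusted p = 1.51e-04). Cyc1, which encodes cytochrome c1, had 10.35, 10.39, 10.21 and 10.23 in Cbfb+/MYH11, against 9.21, 9.23, 9.55 and 9.52 in WT (0.92, adjusted p = 4.27e-06). The core protein gene Uqcrc2 (0.81) and the small subunit gene Uqcrq (0.72) rose as well, while the other core protein gene, Uqcrc1, was at 0.38.

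Complex IV has several subunits with tissue-specific isoforms. Of its 14 tested genes 3 rose in Cbfb+/MYH11 (21.4%, under the 30.5% of all genes), with a median of 0.30, near the 0.26 of all genes. Cox6b2, known as the testis isoform of subunit 6B, had the largest change of all 81 genes. The Cbfb+/MYH11 arrays gave 12.02, 11.86, 11.96 and 11.90, and the WT arrays 10.35, 10.32, 9.91 and 9.91, or 11.93 ± 0.068 and 10.13 ± 0.24 (SD, n = 4 each). The arrays of each genotype are close together and far from the other genotype. The rise was 3.5-fold (1.81, interval 1.58 to 2.04, limma adjusted p = 5.24e-08). The form found in most tissues, Cox6b1, had 11.71, 11.67, 11.89 and 11.87 in Cbfb+/MYH11, against 11.27, 11.34, 11.46 and 11.45 in WT. Its change of 0.40 (adjusted p = 6.48e-04) stayed under 1.5-fold. Levels of the 2 isoforms come from different probes and cannot be set against each other.

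Cox5a, a subunit on the matrix side, rose by 0.98 (adjusted p = 0.00681), though mainly in arrays 1 and 2 (1.44, against 0.52 in arrays 3 and 4). Ndufa4, first assigned to complex I and later found in complex IV, rose by 0.61 (adjusted p = 6.03e-05), and its paralogue Ndufa4l2 was at 0.48. The widespread forms Cox4i1 (0.27), Cox5b (0.33), Cox7a2 (0.50) and Cox8a (0.12) did not reach 1.5-fold. The muscle isoform Cox6a2 (-0.38, adjusted p = 0.00267) and its widespread counterpart Cox6a1 (-0.20, adjusted p = 0.0119) were below 0, as was Cox6c (-0.21, adjusted p = 0.0348). Cox6a2 was 1 of the 2 genes that fell after quantile normalization (-0.63). The lung isoform Cox4i2 and the muscle isoforms Cox7a1 and Cox8b lay below the filter. Cox7a1 was at 4.36, 4.41, 5.68 and 5.99 in Cbfb+/MYH11 and between 3.61 and 4.01 in WT.

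ATP synthase has a catalytic head, a turning ring and a stalk. Of its 17 genes 6 rose in Cbfb+/MYH11 (35.3%, near the 30.5% of all genes), with a median of 0.50. All 3 genes of the ring's c subunit, which make the same mature protein, rose: Atp5g1 by 0.64, Atp5g2 by 1.13 and Atp5g3 by 0.82. Atp5g2 had 9.94, 9.95, 10.22 and 10.24 in Cbfb+/MYH11, against 8.41, 8.64, 9.43 and 9.37 in WT (adjusted p = 3.45e-04), with no overlap and a split within WT. Of the other risen genes, Atp5c1 (0.84) encodes the gamma subunit that turns with the ring, and Atp5pb (0.89) and Atp5j (0.62) encode parts of the outer stalk. The genes of the catalytic head differed, with the alpha subunit Atp5a1 at 0.52 (adjusted p = 0.00439) and the beta subunit Atp5b at -0.10 (adjusted p = 0.384). Of the dimmer probe sets of Atp5a1, that at 0.64 was called (limma over probe sets, adjusted p = 0.0106) and that at -0.12 was not. Atp5j2, the f subunit of the membrane part, was the lowest of the 81 genes. It had 11.72, 11.62, 11.85 and 11.80 in Cbfb+/MYH11, against 12.08, 12.09, 12.29 and 12.44 in WT. This change of -0.48 (adjusted p = 6.93e-04) was under 1.5-fold as deposited and passed it after quantile normalization (-0.67).

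In Cbfb-/- blood fewer of these genes reached the thresholds. Of the 81 genes 10 rose and 1 fell against Cbfb+/+, and the share of 12.3% higher lies under the 19.5% of all genes called higher (6.65% were called lower and 26.2% in either direction). The median change was 0.30, against 0.13 over all genes. Without the fold threshold 36 were higher and 3 lower (28.3% and 15.3% of all genes). In 51 genes each Cbfb-/- array was above each Cbfb+/+ array and in 8 below (44.3% and 25% of all genes). After quantile normalization 2 rose (Atp5g2 and Ndufab1) and 1 fell, and the medians were 0.16 and -0.05, so the difference from the general median was 0.17 as deposited and 0.21 then. The genes' median level was 9.97, 9.89 and 9.94 on the Cbfb-/- arrays and 9.73, 9.71 and 9.70 on the Cbfb+/+ arrays.

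Of the 10 genes that rose in Cbfb-/- 6 were subunits of complex I, which is 18.8% of its 32 tested genes and close to the 19.5% of all genes. Atp5g2 had the largest change among the called genes (0.97, adjusted p = 0.00577), with 10.38, 10.26 and 10.38 in Cbfb-/- and 9.40, 9.35 and 9.36 in Cbfb+/+. Ndufab1 had 9.56, 9.32 and 9.50 in Cbfb-/- and 8.65, 8.57 and 8.63 in Cbfb+/+ (0.85, adjusted p = 0.00153). Ndufs3 had 9.49, 9.33 and 9.37 in Cbfb-/- and 8.66, 8.64 and 8.68 in Cbfb+/+ (0.74, adjusted p = 0.00174). In all 3 genes the arrays of a genotype lie close together and the groups are apart. The others were Ndufc2 (0.72), Ndufa10 (0.69), Ndufa12 (0.67), Ndufa4 (0.64), the assembly factor Ndufaf4 (0.63), Ndufv2 (0.62) and Atp5a1 (0.62). No gene of complex II or III was called. Sdha (0.50, adjusted p = 6.15e-04) and Cyc1 (0.58, adjusted p = 0.00150) passed on p but stayed under 1.5-fold. Ndufb5 was at 1.04 with an adjusted p of 0.0667 from limma.

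Cox6b2 was the 1 gene that fell in Cbfb-/-. It had 10.11, 10.02 and 10.05 in Cbfb-/- and 10.74, 10.63 and 10.68 in Cbfb+/+, or 10.06 ± 0.042 and 10.68 ± 0.053 (SD, n = 3 each). The fall was 1.54-fold (-0.62, interval -0.888 to -0.36, limma adjusted p = 0.00237), close to the fold threshold, and centring the arrays on their medians brought it below that threshold (-0.57). Cox6b1 was at 0.30 (adjusted p = 0.0168).

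The comparisons of the mutants share no arrays. Of the 81 genes 8 (9.88%) rose in both mutants, against 10.4% of all genes, and 0 fell in both (1.95% of all). The 8 were Atp5g2, Ndufa4, Ndufa10, Ndufab1, Ndufaf4, Ndufc2, Ndufs3 and Ndufv2. After quantile normalization Atp5g2 and Ndufab1 were called in both. The Cbfb-/- calls of Ndufaf4, Ndufc2 and Ndufv2 were lost without certain single arrays of that cross, for Ndufc2 when any 1 of the 6 was left out, and the Cbfb+/MYH11 call of Ndufa4 without WT array 1. The sign of the change was the same in 70 genes. As a description, the changes in the mutants correlated with r = 0.56 and rho = 0.68 over the 81 genes, and with 0.75 and 0.75 without Cox6b2. Over all 7393 genes these values were 0.41 and 0.48. The points share arrays and depth of signal within each comparison, so no p is given.

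**Figure D4:**
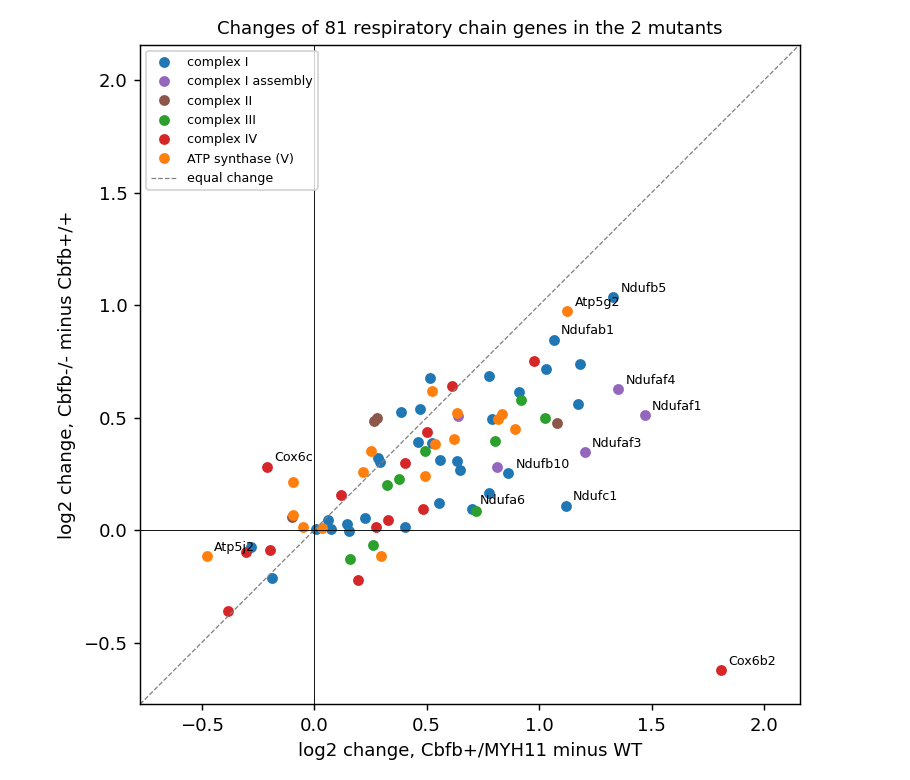
Log2 change of each of the 81 genes in Cbfb+/MYH11 against WT (horizontal) and in Cbfb-/- against Cbfb+/+ (vertical), coloured by complex, with the dashed line marking equal changes. Most genes lie in the upper right and Cox6b2 lies alone at the lower right. All 5 tested complex I assembly factors lie below the dashed line, among them Ndufaf1, for which the filter fixed the direction.

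The difference of the changes was itself tested. It was called for 7 of the 81 genes, all larger in Cbfb+/MYH11, 1 of them Ndufaf1, for which the filter fixed the direction (8.64%, against 14.9% of all genes called that way, 6.07% the other and 20.9% in either). Cox6b2 led with a difference of 2.43 (interval 2.08 to 2.78, limma adjusted p = 5.17e-07). Complex I and its assembly gave 5 of the others. They were the assembly factors Ndufaf1 (0.96, a call lost when array 1 or 2 of Cbfb-/- or of Cbfb+/+ was left out) and Ndufaf3 (0.86, adjusted p = 0.00167), and the accessory subunits Ndufa6 (0.61, adjusted p = 0.00185), Ndufb10 (0.61, adjusted p = 0.00856) and Ndufb3 (0.61, adjusted p = 0.0380). Uqcrq of complex III had 0.63 (adjusted p = 0.0298). The calls of Ndufa6, Ndufb10, Ndufb3 and Uqcrq were lost after quantile normalization and without certain single arrays. Those of Cox6b2, Ndufaf1 and Ndufaf3 were kept after quantile normalization. Ndufa6 had 9.91, 10.00, 9.95 and 9.92 in Cbfb+/MYH11, against 9.32, 9.38, 9.14 and 9.13 in WT, and 9.63, 9.54 and 9.67 in Cbfb-/- and 9.51, 9.51 and 9.54 in Cbfb+/+. Its groups are apart in the first cross (0.70) and touch at 9.54 in the second (0.09). Ndufaf3 was at 6.61, 6.69 and 6.65 in Cbfb-/- and 6.40, 6.29 and 6.22 in Cbfb+/+, a change of 0.35. Cox6c went the other way (-0.49, adjusted p = 0.00975), under 1.5-fold as deposited and called after quantile normalization (-0.60), where 3 genes were higher and 1 lower.

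Other mitochondrial genes were read from lists chosen with earlier results of these data known. Their shares stand against 30.5% of all genes called higher in Cbfb+/MYH11 and 19.5% in Cbfb-/-. Of 29 tested assembly factors and carriers outside the rule, 18 rose in Cbfb+/MYH11 (62.1%, median 0.67) and 5 in Cbfb-/- (17.2%, median 0.28). Cox17, a copper carrier for complex IV, rose by 0.82 and Surf1, another complex IV factor, by 0.94 in Cbfb+/MYH11. Cycs, which encodes cytochrome c, rose in both (0.75 and 0.76). Slc25a4, an ADP/ATP carrier high in heart and muscle, rose by 1.91 in Cbfb-/- but was at -0.12 in Cbfb+/MYH11. On the arrays it had 7.21, 7.30, 8.18 and 8.15 in Cbfb+/MYH11, against 6.76, 6.89, 8.75 and 8.92 in WT, and 8.73, 8.60 and 8.67 in Cbfb-/-, against 6.90, 6.74 and 6.62 in Cbfb+/+. It was thus high on WT arrays 3 and 4, where the muscle markers were high too. Of 5 tested muscle markers 1 rose in Cbfb-/-, Actc1 (3.01, adjusted p = 0.00750), while Acta1 was at 0.54, Tnni1 at 0.88, Des at -0.14 and Myl3 at -0.39. Their part in the Slc25a4 value was not tested.

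Of 19 tested import and folding genes 14 rose in Cbfb+/MYH11 (73.7%, median 1.05) and 10 in Cbfb-/- (52.6%, median 0.74). The inner membrane channel gene Timm23 rose by 1.44 and 0.71, and the matrix chaperone gene Hspa9 by 1.07 and 1.32. Timm10, a chaperone between the membranes, rose by 1.05 in Cbfb+/MYH11 and was at 0.14 in Cbfb-/-, and that difference was called (0.90, adjusted p = 1.77e-05). Of 18 citric acid cycle genes 10 rose (55.6%) and 1 fell in Cbfb+/MYH11, and 8 rose (44.4%) in Cbfb-/-. Mdh2 rose in both (0.79 and 0.86). Pcx, pyruvate carboxylase, which refills the cycle, fell by 1.15 in Cbfb+/MYH11 and was at -0.32 in Cbfb-/-, and the difference was called (-0.84, adjusted p = 6.89e-04). Idh2 was at -0.40 in Cbfb+/MYH11, not called, and rose by 1.18 in Cbfb-/-. Its difference was called as well (-1.58, limma adjusted p = 0.00412).

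Of 13 tested genes of biogenesis and mitochondrial DNA, 6 rose in Cbfb+/MYH11 (46.2%) and 2 in Cbfb-/- (15.4%). Myc, a transcription factor gene, had 7.17, 7.36, 7.25 and 7.19 in Cbfb+/MYH11, against 6.14, 6.16, 6.18 and 6.21 in WT (1.07, adjusted p = 1.13e-06). In Cbfb-/- it was at -0.16, and the difference was called (1.24, adjusted p = 3.14e-05). Gabpb1, a subunit of the ETS factor GABP, had 6.45, 6.60, 7.05 and 7.05 in Cbfb+/MYH11, against 5.21, 5.41, 5.60 and 5.59 in WT (1.34, adjusted p = 1.37e-05). In both genes the groups are apart. Nrf1 was at 0.06 and -0.12 and was not called in either comparison. Tfam, Gabpa, Ppargc1a and Ppargc1b lay below the filter. Of 12 genes of mitochondrial clearance 0 rose and 2 fell in each mutant (16.7%, against 5.63% of all genes called lower in Cbfb+/MYH11 and 6.65% in Cbfb-/-). In Cbfb+/MYH11 these were Sqstm1 (fell by 0.88), an autophagy receptor gene, and Gabarapl2 (fell by 0.76), and in Cbfb-/- they were Ulk1 (fell by 0.72), an autophagy kinase gene, and Gabarapl1 (fell by 0.61).

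Cell cycle genes were higher in both mutants too. All 17 rose in Cbfb+/MYH11 and 9 (52.9%) in Cbfb-/-, against 30.5% and 19.5% of all genes, with medians of 1.55 and 0.88. Among the 17 is Ccne2, which passed the filter through the Cbfb+/MYH11 arrays alone, so its rise there was fixed and is no support. The median level of the 17 genes was 9.19 to 9.30 in Cbfb+/MYH11 and 6.84, 6.95, 8.30 and 8.16 on WT arrays 1 to 4. It was 8.94 to 9.10 in Cbfb-/- and 7.84 to 8.01 in Cbfb+/+. WT arrays 1 and 2 were thus lowest for the cell cycle genes as for the respiratory chain genes. They were also lowest in the median of all tested genes (6.59 and 6.66, against 6.71 to 7.15 on the other arrays). The part of the cell cycle list in the results was not tested.

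**Figure D5:**
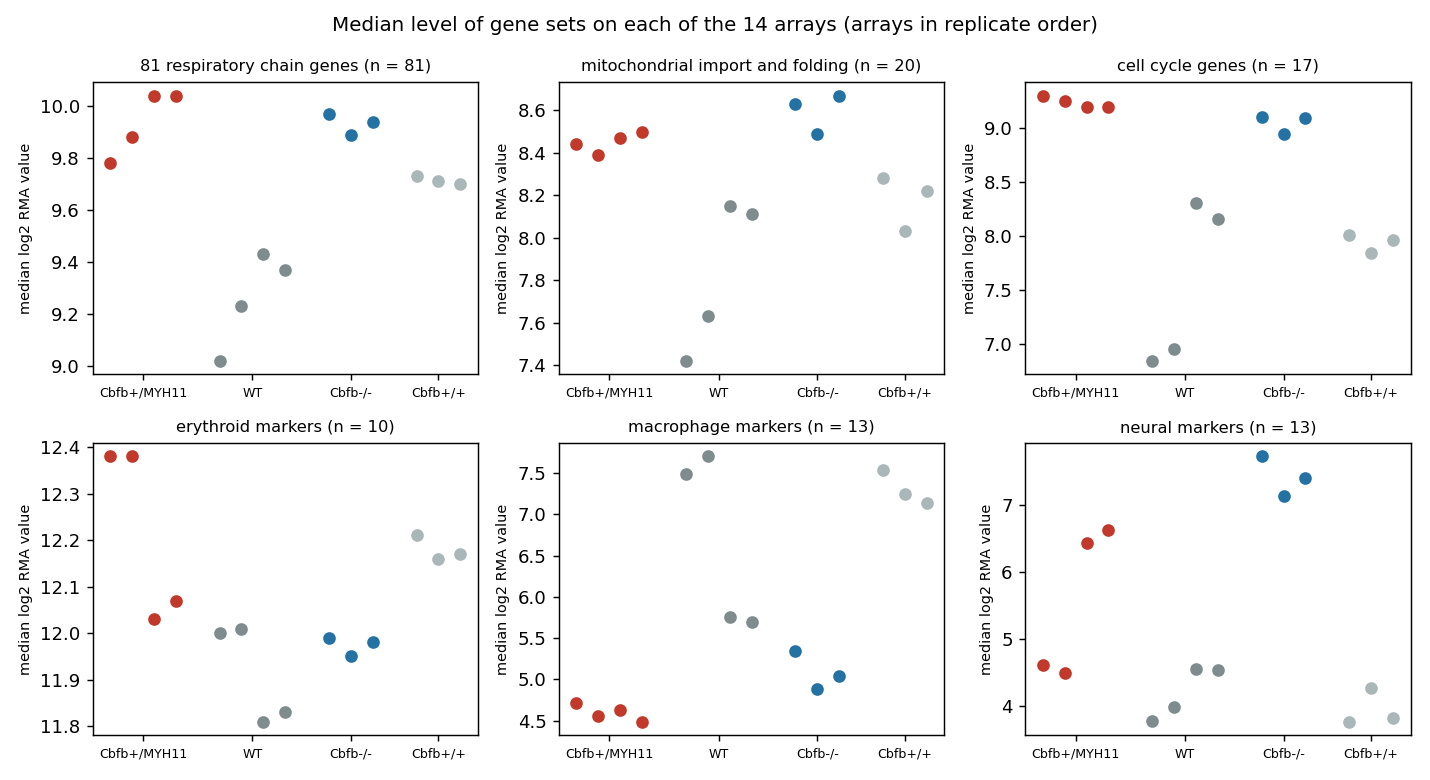
Median log2 RMA value of 6 gene sets on each of the 14 arrays, grouped as Cbfb+/MYH11, WT, Cbfb-/- and Cbfb+/+, each panel with its own vertical scale. Respiratory chain, import and cell cycle genes are higher in both mutants than in their littermates and lowest on WT arrays 1 and 2. The median of all tested genes, not drawn, went the same way. Macrophage markers are lower in both mutants.

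The share called differed with the brightness of the probe sets in Cbfb+/MYH11. Of the genes with a mean log2 value under 8, 8 of 12 rose in Cbfb+/MYH11 (Ndufaf1 among them, its direction fixed by the filter), against 29.6% of all genes in that range. From 8 to 10 it was 18 of 34, against 36.9%, and from 10 upwards 7 of 35, against 22.6%. In Cbfb-/- the counts were 1 of 12, 5 of 34 and 4 of 35, against 19.8%, 20.8% and 10.5% of all genes in these ranges. The part of brightness in the results was not tested. Of the 81 probe sets 17 carry the maker's suffix for sequence shared between transcripts, 6 of them among the 33 that rose, so these may read close relatives too. For 39 genes at least 2 probe sets passed the filter. None gave opposite calls, but whether the call was made differed between probe sets for 9 genes in Cbfb+/MYH11 and 6 in Cbfb-/-. In Cbfb+/MYH11 the brightest probe set was called for Ndufaf8 and Uqcrq. It was not called for Atp5a1, Cox5b, Ndufs8, Ndufv1, Sdhc, Uqcr10 and Uqcrh, where a dimmer one was. In Cbfb-/- the brightest probe set was called for Ndufa12, Ndufc2 and Ndufv2, where a dimmer one was not. For Cox5a, Ndufs8 and Ndufv1 only a dimmer one was called there.

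The p-values rest on arrays. When arrays of a pair, or of a genotype in the Cbfb-/- cross, were averaged as if each set were 1 pool, 0 of the 81 genes were called in any comparison. In that fit 31 of them had an unadjusted p under 0.05 in Cbfb+/MYH11, all higher, and 29.1% of all genes had one. In Cbfb-/- it was 0 of the 81, and 4.54% of all genes, but there each genotype is 1 averaged value whose spread is taken wholly from the other cross. The change of Cox6b2 in Cbfb+/MYH11 then had an adjusted p of 0.0774 from limma.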

How the data were processed

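Gene expression was measured in total RNA of embryonic blood on 14 arrays in 4 groups. Per the submitters' processing notes, the authors ran RMA in Affymetrix Expression Console, and the deposited table of log2 values was used unchanged. RMA normalizes arrays to each other, which limits global shifts. Of 45101 probe sets, 34958 carry 1 gene symbol in the platform annotation. For each of 18194 genes the probe set of highest mean over all arrays was kept, and genes at 6 or more on at least 3 arrays were tested (7393). Groups were fitted in 1 model with limma 3.58.1 in R 4.3.3 (lmFit, contrasts.fit, eBayes; residual degrees of freedom 10, prior 2.81). A gene was called, and said to have risen or fallen, at a Benjamini-Hochberg adjusted p under 0.05 over all tested genes and a change of at least 1.5-fold (0.585 on the log2 scale). Intervals are 95% intervals of the fit. The method was tested on simulated data.

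The members and lists were chosen with earlier results of these data known. Named with values are, per complex, up to 4 called genes with the largest change in each comparison, isoform sets, core subunits and up to 4 genes per further list. Myc, Nrf1, Tfam, Gabpa, Ppargc1a and Ppargc1b come from those lists, some chosen after their values were seen. Same-numbered arrays were compared by correlating their deviations from the group means. In the Cbfb+/MYH11 cross these were 0.521, 0.407, 0.499 and 0.499, and the numbers come from the titles. Arrays of unlike number inside the sets 1 and 2, or 3 and 4, correlated as well (0.417 to 0.514), and arrays of different sets gave -0.526 to -0.432. Arrays of that cross thus go together by set rather than by number. In the Cbfb-/- cross same numbers gave 0.034, 0.011 and 0.017, so they pair nothing there. Promoter windows come from RefSeq (GRCm38.p6). Alternatives were quantile normalization, centred arrays, other filters, the mean of a gene's probe sets, no fold threshold, the replicate number as a block, averaged pools, single array pairs and leaving out each array.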

Additional observations from a re-analysis of the deposited data

Results flagged for a closer look

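In 3 of 162 groups of 4 arrays, 1 array stood far from the other 3. Chance alone marks about 1 group in 20 when the 4 arrays are independent. Here arrays 1 and 2, and 3 and 4, resemble each other, so that rate does not apply. Ndufa2 was at 8.72 on WT array 1, with the other WT arrays at 9.10 to 9.15. Uqcr11 was at 8.57 on the same array, with the others at 8.98 to 9.03. Ndufaf3 was at 5.27 on WT array 2, with the others at 5.61 to 5.64. All 3 lie below the rest of WT.

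For 7 genes the change in Cbfb+/MYH11 was larger than that in Cbfb-/- by a test of the difference itself (limma over all genes). The differences were 2.43 for Cox6b2, 0.96 for Ndufaf1, 0.86 for Ndufaf3, 0.63 for Uqcrq, and 0.61 for each of Ndufa6, Ndufb3 and Ndufb10. Cox6b2 is the 1 gene of the 7 with called changes in opposite directions. Ndufaf1 passed the filter through the Cbfb+/MYH11 arrays alone, which fixed its direction. Cox6b2 and Ndufaf3 kept this call without any single array.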

How the results depend on the processing

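For the 81 genes, 33 rose and 0 fell in Cbfb+/MYH11, 10 rose and 1 fell in Cbfb-/-, and 7 differences were higher and 0 lower. In this order the counts were 18 and 2, 2 and 1, and 3 and 1 after quantile normalization, and 59 and 6, 36 and 3, and 10 and 1 with no fold threshold. All 6 counts were 0 with averaged pools, a setting with fewer samples (residual degrees of freedom 2). With centred arrays 43 rose in Cbfb+/MYH11, and 0 fell in Cbfb-/-. With the mean of all probe sets 28 rose in Cbfb+/MYH11 and 4 in Cbfb-/-. Within arrays 1 and 2 alone 36 genes rose in Cbfb+/MYH11 and 17 differences were called, and within arrays 3 and 4 these were 25 and 7. The cause of these shifts was not tested. No call of a single named gene changed direction under any of these settings.

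With the replicate number as a block, 33 genes rose in Cbfb+/MYH11, 12 in Cbfb-/- and 10 differences were higher, and no named gene lost its call. Leaving out 1 array at a time gave 28 to 37 genes higher and 0 lower in Cbfb+/MYH11, 7 to 12 higher and 1 lower in Cbfb-/-, and 3 to 10 differences higher and 0 lower. The differences numbered 3 without Cbfb-/- array 2 and 4 without Cbfb+/MYH11 array 4, WT array 1, Cbfb+/+ array 1 or Cbfb+/+ array 2. Of the 33 genes 28 kept their call without any single array, 18 after quantile normalization and 23 within both array pairs. Genes below the filter lie near background, where changes cannot be read.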
